A study of Oryza sativa with 12 samples.

Results

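OsalphaCA2 (Os04g0412500), OsALMT1 (Os04g0417000) and OscytME3 (Os01g0743500) are 3 rice genes named in the deposited tables for a carbonic anhydrase, an aluminum-activated malate transporter and a malic enzyme. They were chosen by gene name for their place in bicarbonate and organic acid handling, 3 of the 13674 genes that the 4 tables hold. Each had a value in all 12 libraries. The libraries came from leaf RNA of the rice varieties QJ10 (QJ) and LJ31 (LJ), which form 4 groups of 3: QJ under bicarbonate salt-alkali stress, QJ control, LJ under the same stress and LJ control. The series record gives the concentration as 200 mmol/L, describes the samples of a group as biological replicates and names no transgene or mutation. Neither the length of the stress nor the age of the plants is stated in the labels. Every table lists only genes that the authors had already called changed between its pair of groups.

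Carbonic anhydrases interconvert carbon dioxide and bicarbonate, the ion that the stress supplies. Phosphoenolpyruvate carboxylase joins bicarbonate to phosphoenolpyruvate, malate dehydrogenase reduces the resulting oxaloacetate to malate, and malic enzyme splits malate into pyruvate and carbon dioxide. Malate also leaves the cytosol through channels of the aluminum-activated malate transporter (ALMT) family, whose wheat founder releases malate from roots, where it chelates aluminum. In plants, consumption of malate by malic enzyme and its synthesis through phosphoenolpyruvate carboxylase are classically described as a buffer of cytosolic pH.

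The variety labels rest on the column headers, because the tables of the QJ and LJ stress comparisons each carry the other variety's name. Each statement on varieties below depends on them. Values are FPKM (fragment counts divided by transcript length and by library size), given as mean ± SD over 3 libraries, and they can be compared between genes since they are per length. The labels and tables state no read totals. Among genes at 0.15 to 1 FPKM, the commonest log2 ratio between libraries of a group lay between -0.05 and 0.10 in 24 such pairs over the tables, a small spread within groups. Between libraries of different groups it ranged from -0.9 to 1.0 in 36 pairs. These genes were selected as changed between the groups, so scaling between groups cannot be read from it. Photosynthetic leaf markers (7 genes) summed to 1881 to 1895 FPKM in QJ stress, 9216 to 9375 in QJ control, 794 to 821 in LJ stress and 5376 to 5395 in LJ control. Leaf markers were thus present in all groups. Anther and tapetum markers with all values (4 genes) summed to 2.40 to 2.56 FPKM in QJ stress, 1.17 to 1.95 in QJ control, 7.70 to 10.6 in LJ stress and 247 to 256 in LJ control. Floral organ markers (2 genes) summed to at most 0.73 FPKM in QJ stress, 0.62 in QJ control and 3.06 in LJ stress, against 66.8 to 72.1 in LJ control. OsMADS7 was listed at 0 in all 3 QJ control libraries, OSC6 in all 3 QJ stress libraries, EAT1 in all 3 QJ control libraries, and RTS in all 3 QJ control and all 3 LJ stress libraries. Unlike the sum of anther markers, EAT1 was higher in LJ stress, at 3.31 to 4.24 FPKM, than in LJ control, at 1.24 to 1.53 FPKM. The part of these tissue markers in the results below was not tested.

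OsalphaCA2, the carbonic anhydrase, fell under stress in both varieties. QJ stress libraries held 3.78, 3.23 and 3.51 FPKM, against 9.98, 8.71 and 9.45 FPKM in QJ control. LJ stress libraries held 0.63, 1.54 and 1.22 FPKM, against 11.45, 13.33 and 13.35 FPKM in LJ control. No stressed library reached any control library of its variety, and the lowest values of all were in stressed LJ. The mean was 3.51 ± 0.275 FPKM in QJ stress and 9.38 ± 0.638 FPKM in QJ control, a difference of -1.20 on the log2(FPKM + 1) scale (SE 0.0949, limma adjusted p = 5.24e-06). In LJ it was 1.13 ± 0.462 FPKM under stress and 12.7 ± 1.09 FPKM in control, a difference of -2.71 on that scale (SE 0.166, limma adjusted p = 8.97e-07). Expressed as ratios of mean FPKM, stress to control, these were 0.374 in QJ and 0.0889 in LJ. In these bulk leaf samples a smaller number of cells that express the gene cannot be told apart from less RNA per cell. The 7 photosynthetic leaf markers summed lower in the stressed groups of both varieties as well.

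OsALMT1, the malate transporter family member, was near the bottom of the measurable range in control leaves and rose under stress in both varieties. QJ stress libraries held 1.81, 3.01 and 2.78 FPKM, against 0, 0.16 and 0.08 FPKM in QJ control. LJ stress libraries held 10, 9.32 and 9.57 FPKM, against 0.24 FPKM in each LJ control library. Stressed and control libraries did not overlap in either variety, and stressed LJ stood above stressed QJ in every library. The log2(FPKM + 1) difference was 1.70 in QJ (SE 0.15, limma adjusted p = 1.06e-05) and 3.10 in LJ (SE 0.0854, limma adjusted p = 8.12e-09). The added 1 shrinks these differences, since both controls were far below 1 FPKM, and with 0.1 added they were 3.95 and 4.84. The ratio of mean FPKM, stress to control, was 31.7 in QJ and 40.1 in LJ, and the authors' deposited table gives folds of 28.2 and 45.8. All 6 control values were whole multiples of 0.08 FPKM to the 2 decimals given: 0, 2 and 1 times that step in the QJ control libraries and 3 times in each LJ control library. The denominators of these ratios therefore rest on very few such steps, and the equal LJ values carry no measurable spread at this rounding.

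OscytME3, the malic enzyme, also rose in both varieties, with the higher level in stressed QJ. QJ stress libraries held 8.80, 8.31 and 8.77 FPKM, against 0.36, 0.33 and 0.23 FPKM in QJ control. LJ stress libraries held 2.45, 2.23 and 2.46 FPKM, against 0.13, 0.25 and 0.16 FPKM in LJ control. The 3 stressed QJ libraries were the highest of the 12, stressed LJ lay between, and the controls of both varieties were all under 1 FPKM. The log2(FPKM + 1) difference was 2.88 in QJ (SE 0.0959, limma adjusted p = 2.94e-08) and 1.52 in LJ (SE 0.0883, limma adjusted p = 6.33e-07). The ratio of mean FPKM, stress to control, was 28.1 in QJ and 13.2 in LJ, and the authors' deposited table gives folds of 25.2 and 14.7. With 0.1 added to FPKM the log2 differences were 4.44 in QJ and 3.17 in LJ.

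**Figure D1:**
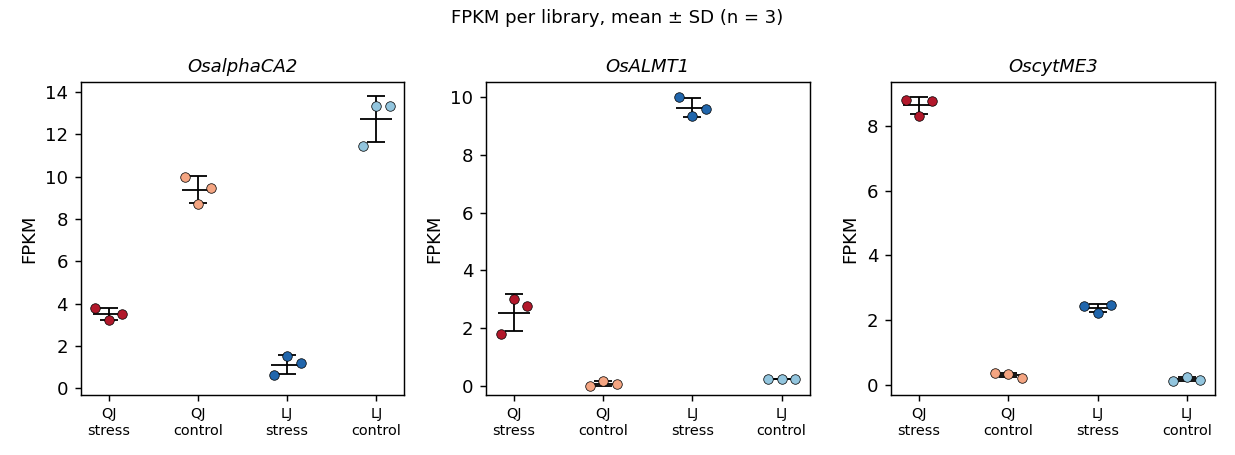
FPKM of OsalphaCA2, OsALMT1 and OscytME3 (vertical axes, linear) in each library of the 4 groups (horizontal axes); points are libraries, and the long bar with whiskers is the mean ± SD of 3 libraries. OsalphaCA2 is lower in the stressed groups, OsALMT1 is highest in stressed LJ at 9.32 to 10 FPKM, and OscytME3 is highest in stressed QJ at 8.31 to 8.80 FPKM.

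In each variety 1 member fell and 2 rose, so 3 of 3 passed the test in both stress comparisons. This count has little meaning by itself, because 99.7% of tested genes passed in QJ (50.7% higher and 49.0% lower) and 99.7% in LJ (49.6% higher and 50.0% lower). Groups did not overlap for 99.3% of tested genes in each. The median log2 difference of all tested genes was 0.66 in QJ and -0.54 in LJ. With each library centred on its median before the fit, the differences of OsalphaCA2, OsALMT1 and OscytME3 were -1.52, 1.38 and 2.56 in QJ and -2.65, 3.16 and 1.58 in LJ. These medians are taken over genes already called changed. The centring therefore cannot set a scaling offset between libraries apart from real changes of those genes. OsALMT1 and OscytME3 met the requirement of 1 FPKM in 3 libraries only through the stressed groups in both stress comparisons, so they had to differ there once they entered. The same limit holds for OsalphaCA2 in LJ, where 3 of 3 libraries reached 1 FPKM only in control, while in QJ both groups met it.

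The size of the stress response differed between QJ and LJ for each of the 3 genes in the fit over all 12 libraries. The response of QJ minus that of LJ was 1.50 for OsalphaCA2 (SE 0.198, limma adjusted p = 2.33e-05), on the log2(FPKM + 1) scale, so the fall was smaller in QJ. It was -1.40 for OsALMT1 (SE 0.172, limma adjusted p = 1.20e-05), a smaller rise in QJ. For OscytME3 it was 1.36 (SE 0.114, limma adjusted p = 3.45e-07), a larger rise in QJ. The background was high here too, among genes with values in all 12 libraries. The authors had called each of these genes changed between more than 1 pair of groups. Of the 5170 tested, 66.4% passed (41.4% higher and 25.0% lower, or 2140 and 1291 genes). That split was 1405 higher and 1827 lower after median centring and 1594 and 1689 under the scaling of the authors' fold changes, whereas the direction of the 3 members was unchanged by either. The OsALMT1 call ended when 0.1 rather than 1 was added to FPKM (-0.89, limma adjusted p = 0.0953, against at most 0.000133 with 0.5 or 1 added). For OsALMT1 the varieties thus differed in the FPKM reached under stress, while on a scale nearer to ratios the difference did not pass.

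**Figure D2:**
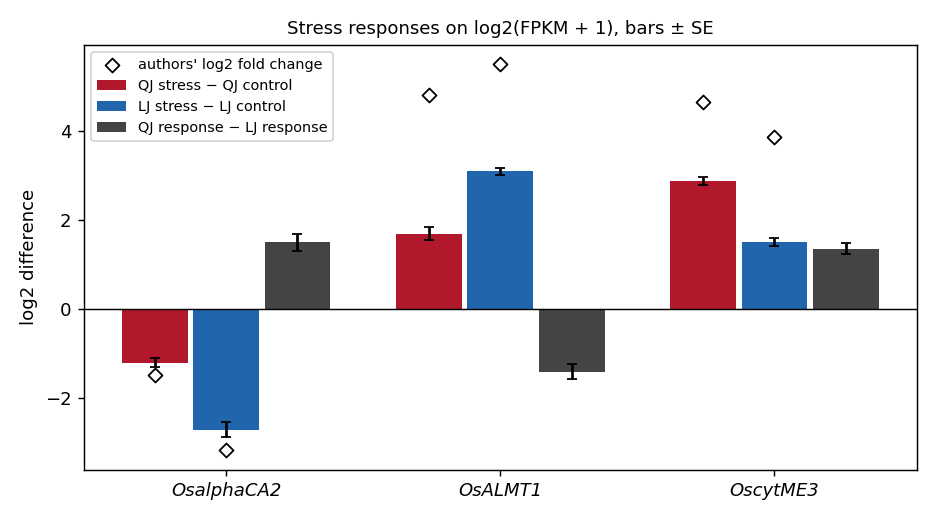
Differences on the log2(FPKM + 1) scale (vertical axis) for the 3 genes: stress minus control in QJ, stress minus control in LJ, and the QJ response minus the LJ response; bars carry ± SE from limma, and open diamonds give the authors' deposited log2 fold change. The authors' values for OsALMT1 and OscytME3 lie well above the bars, and the distance between QJ and LJ is smaller for OsALMT1 among the diamonds (4.82 and 5.52) than among the bars (1.70 and 3.10).

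Under stress itself, QJ and LJ differed in all 3 genes. OsalphaCA2 was higher in stressed QJ than in stressed LJ (log2(FPKM + 1) difference 1.1, SE 0.167, limma adjusted p = 0.000266). It met the requirement of 1 FPKM in 3 libraries here only through stressed QJ, where it is high, which limits that test. OscytME3 was higher in stressed QJ as well (1.51, SE 0.0881, limma adjusted p = 6.56e-07), and OsALMT1 was lower there (-1.61, SE 0.143, limma adjusted p = 9.58e-06). Libraries of the stressed groups did not overlap for any of the 3 genes, which held for 99.0% of tested genes, and 99.4% passed the test (34.0% higher and 65.4% lower in QJ). The log2 fold changes in the authors' deposited table differed from log2 ratios of mean FPKM by a median of -0.354 here, -0.15 between controls, -0.145 in QJ stress and 0.142 in LJ stress. With the libraries shifted by that -0.354, the differences between stressed groups were 0.84 for OsalphaCA2, 1.20 for OscytME3 and -1.85 for OsALMT1. The stressed libraries also enter the stress comparisons, so this is no separate evidence. The summed anther and tapetum markers were higher in stressed LJ as well, and their part in these differences was not tested.

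The stressed varieties held OsALMT1 and OscytME3 in opposite order. The level of OsALMT1 was 0.206, 0.362 and 0.317 times that of OscytME3 in the stressed QJ libraries, and 4.08, 4.18 and 3.89 times in the stressed LJ libraries. On the log2 scale the ratio was -1.80 ± 0.427 in QJ and 2.02 ± 0.0527 in LJ (SD, n = 3 each), a difference of -3.82. Since neither gene overlapped between the stressed groups and the directions were opposite, the ratios had to separate. The exact two-sided permutation p of 0.10, the smallest that 3 against 3 libraries allow, therefore adds nothing to the tests of the single genes.

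**Figure D3:**
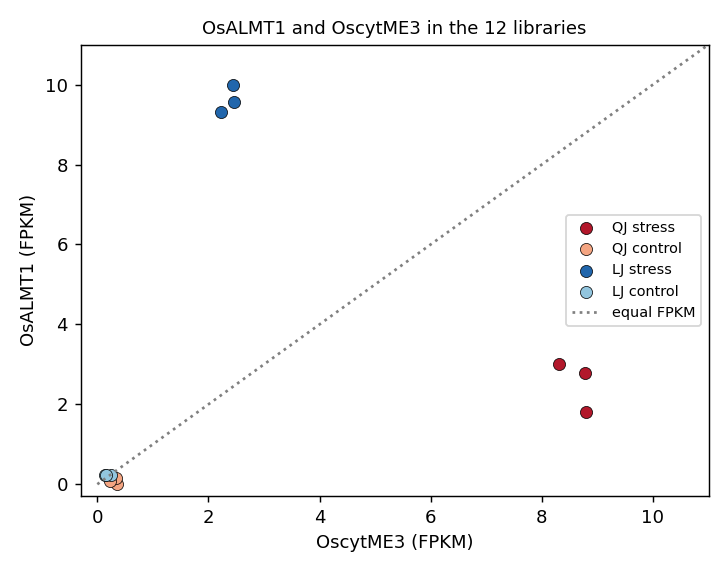
OsALMT1 against OscytME3 in FPKM (linear axes), 1 point per library, coloured by group, with a dotted line of equal FPKM. Stressed QJ libraries lie below the line at 8.31 to 8.80 FPKM of OscytME3, stressed LJ libraries above it at 9.32 to 10 FPKM of OsALMT1, and the 6 control libraries sit together near the origin.

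Between control leaves of the varieties the differences were smaller in size than between stressed leaves. None of the 3 genes is listed in the table of QJ control against LJ control, so the contrast was taken from the fit over 12 libraries, a step chosen after that was seen. OsalphaCA2 averaged 9.38 FPKM in QJ control and 12.7 FPKM in LJ control, without overlap, a difference of -0.40 (SE 0.14, limma adjusted p = 0.0167) that was 0.09 and not past the threshold after median centring. It also missed the threshold without QJ control replicate 2, LJ control replicate 2 or LJ control replicate 3 (limma adjusted p = 0.0524 to 0.0571), and with 0.1 added to FPKM (-0.43, limma adjusted p = 0.0983). For OsALMT1 the control libraries did not overlap, at most 0.16 FPKM in QJ against 0.24 FPKM in LJ. The difference was -0.20 (SE 0.121, limma adjusted p = 0.133), turning to 0.29 after median centring (limma adjusted p = 0.0404). It passed with 0.5 or 0.1 added to FPKM and without QJ stress replicate 1 (limma adjusted p = 0.0365). For OscytME3 the control libraries overlapped, and the difference was 0.15 (SE 0.0807, limma adjusted p = 0.103), which passed at 0.64 after median centring, at 0.55 with 0.1 added to FPKM and without the trended prior. In this contrast 89.2% of tested genes passed (31.2% higher and 58.0% lower in QJ, or 1613 and 2999 genes, against 2152 and 2441 after median centring), and the groups of 89.3% did not overlap. The median difference of the tested genes was -0.66. Since they were selected as changed, centring on their medians cannot set a scaling offset apart from real differences.

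The order of levels was therefore different for each gene. OsalphaCA2 ran from LJ control through QJ control and QJ stress down to LJ stress, with the 2 controls not separated under every setting. OsALMT1 ran from LJ stress to QJ stress, with the 2 controls last and their difference not past the threshold on the main scale. OscytME3 ran from QJ stress to LJ stress, again with the controls last and not separated on the main scale.

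Other carbonic anhydrases moved in both directions. Alpha and beta carbonic anhydrases are unrelated in sequence and catalyse the same reaction. Of 5 genes of the family found in the tables, 2 were tested in QJ stress (1 higher, 1 lower) and 5 in LJ stress (3 higher, 2 lower), where 99.7% of all tested genes passed in each. Their median log2 difference was 1.13 in LJ, against -0.54 for all tested genes. In QJ the median was 0.27, against 0.66. It describes neither of the 2 genes there, OsalphaCA2 at -1.20 and OsalphaCA6 at 1.74. OsalphaCA6 (Os08g0470200) rose to 43.7 ± 0.675 FPKM in QJ stress, against 12.4 ± 0.703 FPKM in QJ control. In LJ it rose to 122 ± 3.6 FPKM under stress, against 55.3 ± 3.47 FPKM in control. OsalphaCA2 and OsalphaCA6 thus moved in opposite directions in both varieties. OsalphaCA2 made up 7.43% ± 0.497 of the summed FPKM of this pair in QJ stress and 43.0% ± 3.04 in QJ control. In LJ its share was 0.919% ± 0.381 under stress and 18.7% ± 1.96 in control.

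The remaining carbonic anhydrases were tested for a stress response in LJ alone. OsalphaCA7 (Os08g0470700) rose to 44.4 ± 1.05 FPKM in LJ stress, against 0.907 ± 0.21 FPKM in LJ control, and was at 1.65 ± 0.551 FPKM in QJ stress. OsbetaCA2 (Os09g0464000) rose to 173 ± 2.24 FPKM in LJ stress, against 56.4 ± 1.26 FPKM in LJ control. OsalphaCA1 (Os02g0533300) fell with OsalphaCA2, to 3.52 ± 0.525 FPKM in LJ stress, against 9.11 ± 0.706 FPKM in LJ control. The largest of these adjusted p-values in limma was 1.39e-05, although OsalphaCA7 entered the LJ test only through the stressed libraries, where it is high. OsbetaCA2 and OsalphaCA1 appear only in the LJ stress table, and whether they changed in QJ is not analysed here.

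OsALMT1 had the highest level of the 4 ALMT genes found in LJ stress. OsALMT4 (Os01g0221600), known in rice as a malate-permeable channel, fell to 1.56 ± 0.0929 FPKM in LJ stress, against 3.88 ± 0.345 FPKM in LJ control (limma adjusted p = 2.40e-05). OsALMT7 (Os02g0673100), known in rice from panicle development, was at 0.32 to 0.42 FPKM in LJ stress and 0.55 to 0.61 FPKM in LJ control. In QJ it did not exceed 0.03 FPKM under stress and was listed at 0 in all 3 controls. OsALMT8 (Os04g0567200) was at 0.15 to 0.23 FPKM in LJ stress and 0.29 to 0.41 FPKM in LJ control, and did not exceed 0.05 FPKM in any QJ library. The 2 genes lie below the level required for testing. OsALMT1 made up 82.0% ± 1.22 of the summed FPKM of the 4 genes in LJ stress and 4.77% ± 0.368 in LJ control. In QJ, where OsALMT4 has no values, its share of the other 3 was 98.8% ± 1.30 under stress. It was 84.2% and 100% in the 2 QJ control libraries where these sum to more than 0, at sums too low to set against the stressed libraries.

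Among the 3 malic enzymes found, OscytME3 had the lowest level in each group. OscytME2 (Os05g0186300), named as another cytosolic form, rose to 41.3 ± 0.60 FPKM in QJ stress, against 12.2 ± 0.898 FPKM in QJ control (log2 difference 1.68, SE 0.0624). In LJ it rose to 53.8 ± 1.76 FPKM under stress, against 19.7 ± 1.09 FPKM in control (1.41, SE 0.0531). Its response differed between varieties by 0.27 (SE 0.0811, limma adjusted p = 0.00979), against 1.36 for OscytME3. The authors' deposited log2 fold changes for OscytME2 were nearly equal, at 1.61 in QJ and 1.60 in LJ. For OscytME3 they were 4.66 and 3.88. Other scalings were not run for OscytME2, so its small difference cannot be set apart from a scaling offset between groups. The gene named NADP-ME (Os01g0188400) held 130 ± 2.18 FPKM in QJ stress and 113 ± 2.04 FPKM in QJ control, and 279 ± 3.58 FPKM in LJ stress and 267 ± 5.32 FPKM in LJ control. It is listed in neither stress table. It was lower in QJ than in LJ under stress and in control (limma adjusted p at most 2.94e-09), as were 68.6% of tested genes in the control table, where 31.1% were higher. OscytME3 supplied 4.78% ± 0.145 of the summed FPKM of the 3 genes in QJ stress and 0.243% ± 0.0511 in QJ control. Its share in LJ was 0.709% ± 0.0426 under stress and 0.0625% ± 0.0207 in control.

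**Figure D4:**
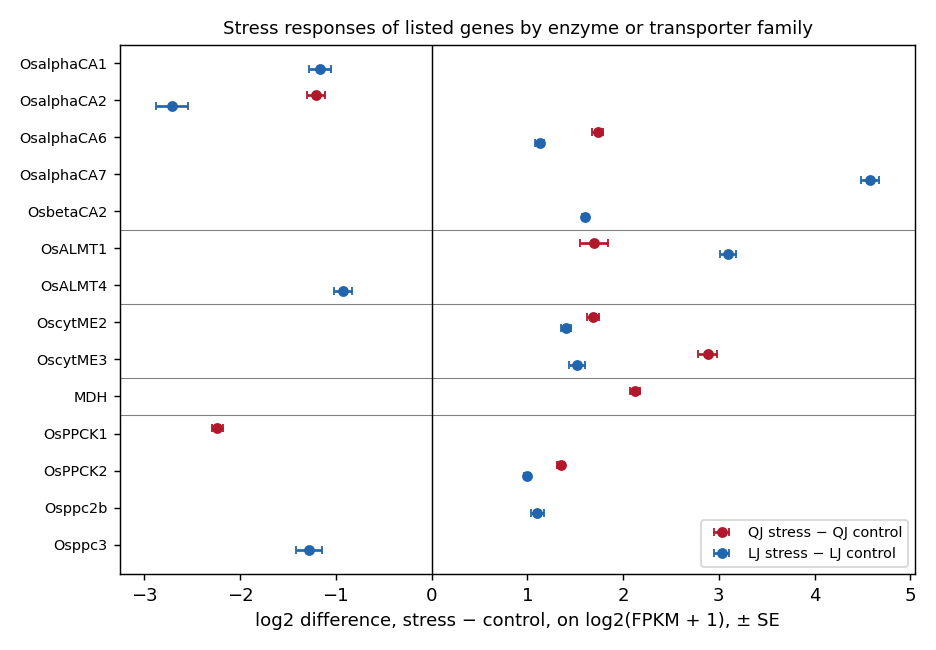
Stress minus control on the log2(FPKM + 1) scale (horizontal axis, ± SE from limma) for listed carbonic anhydrases, ALMT channels, malic enzymes, malate dehydrogenase, and phosphoenolpyruvate carboxylases with their kinases, divided by grey lines; QJ points are drawn above LJ points, and a missing point means that the gene was not listed or not tested in that variety. Of the 2 carbonic anhydrases with a QJ point, OsalphaCA2 fell (-1.20) and OsalphaCA6 rose (1.74). Among the plotted genes OsalphaCA7 has the largest rise in LJ (4.58) and OscytME3 in QJ (2.88).

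Enzymes that make malate were listed less completely. The gene named MDH (Os08g0434300) rose to 106 ± 0.581 FPKM in QJ stress, against 23.4 ± 1.62 FPKM in QJ control (log2 difference 2.13, SE 0.0528, limma adjusted p = 6.05e-09), and it was at 65.5 ± 2.59 FPKM in LJ control. Of 4 phosphoenolpyruvate carboxylases and their kinases, 2 were tested in QJ stress (1 higher, 1 lower) and 3 in LJ stress (2 higher, 1 lower), against 99.7% of all tested genes passing in each. The kinases phosphorylate the carboxylase and make it less sensitive to inhibition by malate. OsPPCK2 (Os02g0625300) rose to 186 ± 7.92 FPKM in QJ stress, against 72.4 ± 1.87 FPKM in QJ control, and to 317 ± 7.80 FPKM in LJ stress, against 158 ± 6.19 FPKM in LJ control. OsPPCK1 (Os02g0807000) fell to 36.2 ± 3.20 FPKM in QJ stress, against 174 ± 3.92 FPKM in QJ control, and was at 168 ± 1.77 FPKM in LJ stress. The carboxylase Osppc2b (Os09g0315700) rose to 18.4 ± 0.642 FPKM in LJ stress, against 8.02 ± 0.591 FPKM in LJ control. Osppc3 (Os01g0758300) fell to 0.27 ± 0.181 FPKM in LJ stress, against 2.07 ± 0.318 FPKM in LJ control. The adjusted p of these changes was at most 2.52e-05 in limma, although Osppc3 entered the LJ test only through the control libraries, where it is high. PEPCK (Os10g0204400), named for phosphoenolpyruvate carboxykinase, stayed at or under 0.55 FPKM in every library with a value, and so did Osppc-b (Os01g0110700), a carboxylase added after its values were seen.

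A citrate transporter and a proton pump rose in both varieties. OsFRDL1 (Os03g0216700), a citrate transporter known in rice for iron movement in the xylem, rose to 2.28 ± 0.348 FPKM in QJ stress, against 0.507 ± 0.204 FPKM in QJ control. In LJ it rose to 2.79 ± 0.348 FPKM under stress, against 1.46 ± 0.286 FPKM in control (limma adjusted p = 0.00116). In QJ it entered the test only through the stressed libraries. Its rise was larger in QJ than in LJ by 0.50 (SE 0.182, limma adjusted p = 0.0284), in a test that 66.4% of tested genes passed. Other settings were not run for this gene. Of 8 proton pump genes, 1 was tested in QJ stress and rose, and 4 were tested in LJ stress, of which 3 rose and 1 fell, with 99.7% of all tested genes passing in each comparison. The plasma membrane proton pump OSA1 (Os03g0689300) rose to 10 ± 0.51 FPKM in QJ stress, against 1.64 ± 0.136 FPKM in QJ control. In LJ it rose to 14.1 ± 0.0954 FPKM, against 3.28 ± 0.532 FPKM in control, and its responses did not differ past the threshold (0.24, SE 0.132, limma adjusted p = 0.135). The vacuolar ATPase subunit gene OsVHA-B (Os06g0568200) rose to 251 ± 4.69 FPKM in LJ stress, against 133 ± 1.51 FPKM in LJ control. The vacuolar pyrophosphatase gene OVP2 (Os06g0178900) fell to 20.6 ± 0.915 FPKM in LJ stress, against 88.8 ± 1.65 FPKM in LJ control. OVP1 (Os06g0644200), another vacuolar pyrophosphatase, was listed between controls only, at 245 ± 2.35 FPKM in QJ and 120 ± 2.47 FPKM in LJ.

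A few named genes followed each member closely over the 12 libraries. Likeness was the root mean square difference of log2(FPKM + 1), centred per gene, among 1814 named genes with all values whose highest group averaged 5 FPKM or more. Nearest to OsalphaCA2 were PSBW (0.21), a photosystem II subunit, the gene named Amt (0.23), and Fd1 (0.23), a ferredoxin. OsLEA3 (0.16), a late embryogenesis abundant gene, alpha-Gal (0.19), an alpha-galactosidase, and PHR3 (0.21), a phosphate starvation response factor, were nearest to OsALMT1. For OscytME3 they were OsIRT2 (0.15), an iron transporter, OsEnS-150 (0.20) and OPT (0.22), named for an oligopeptide transporter. OsIRT2 averaged 8.11 FPKM in QJ stress and 0.0467 FPKM in QJ control, and 1.92 FPKM in LJ stress and 0.16 FPKM in LJ control, the order of groups seen for OscytME3 under stress, with both controls low. The members were less like each other than these genes, which were picked as the nearest of 1814. The difference was 1.12 between OsALMT1 and OscytME3, 2.10 between OsalphaCA2 and OscytME3 and 2.39 between OsalphaCA2 and OsALMT1. By rank of likeness among the 1814, OscytME3 was 574 for OsALMT1 and OsALMT1 was 457 for OscytME3. Pairs with OsalphaCA2 ranked 1456 to 1708.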

How the data were processed

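Per the labels' protocols, libraries were made from 1 ug of total leaf RNA and sequenced on the NovaSeq X Plus. The deposited values are FPKM per library, with the authors' own group means, fold changes (ratios), log2 fold changes, p-values and adjusted p-values. No source used here names the aligner, build, counting or test, so the treatment of reads shared by close gene copies is unknown. As tested on the values, every deposited table holds only genes past the authors' selection (adjusted p-value below 0.05, log2 change of 1 or more in either direction). Columns were matched to sample titles by group and replicate number. The descriptions of the QJ samples repeat 1 library name per group and were not used.

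Limma 3.58.1 (R 4.3.3, trended prior) was fitted to log2(FPKM + 1) over each whole table, keeping genes that reached 1 FPKM in 3 or more libraries. Responses were compared over 12 libraries, on genes with all values. Tests were two-sided, with Benjamini-Hochberg adjustment over all tested genes and a threshold of 0.05. The procedure was tested on simulated data in which most genes were unchanged. The tables hold only genes selected as changed, so that test does not show how the fit behaves on them. P-values measure the spread between these samples, which may be technical. Python 3.11.15, pandas 2.3.3, numpy 2.4.6, scipy 1.17.1 and matplotlib 3.10.9 were used.

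The members, the 9 pathway lists and the tests were chosen with earlier results of these data known. Lists were matched by gene name. Named from each were up to 4 genes of highest mean FPKM and genes sharing a member's family name, and for each member the 3 genes most like it. The list of citrate, isocitrate, succinate and fumarate enzymes is not reported here. The citrate transport list also matched OMT7 and OsOMT26, names that do not establish its function, so their values are not described. The RefSeq gene table matched 0 of 3 members, so no coordinates or sequences are given. Alternatives were other pseudocounts, filters, scalings and priors, a joint fit, a replicate block and the omission of single libraries.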

Additional observations from a re-analysis of the deposited data

Results flagged for a closer look

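Responses to stress differed between the varieties, by the test of the difference itself over 12 libraries, in each of the 3 genes. The QJ response minus the LJ response was 1.50 for OsalphaCA2, which fell in both varieties, on the log2(FPKM + 1) scale. It was -1.40 for OsALMT1 and 1.36 for OscytME3, which rose in both. As 66.4% of all tested genes also passed this test, passing it does not set these genes apart. The 3 libraries per group are too few for a test of single outlying libraries.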

How the results depend on the processing

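Of 204 values for the 3 genes in the stress, stressed-group and response comparisons under other settings, 203 kept their direction and their side of the threshold (limma adjusted p at most 0.00186), and the exception was the OsALMT1 difference of responses with 0.1 added to FPKM (-0.89). No pairing of samples by replicate number was seen (correlations of deviations -0.0961 to 0.0938 in 18 pairs), a weak check with 3 libraries per group. With the replicate block 12 of 12 calls of the 3 genes held (limma adjusted p at most 0.00106). Fewer genes enter with a higher minimum or in the joint fit, and the counts of passing genes were lower: with a minimum of 5 FPKM and in the joint fit they were 3979 and 3010 in LJ stress, and 3689 and 3886 between controls. At that minimum OsALMT1 in QJ stress, OscytME3 in LJ stress and OsalphaCA2 between stressed groups gave no value.

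Between controls, over 12 libraries, a contrast chosen after the data were seen, other settings moved several values, and the cause was not tested. Median centring, which here rests on genes selected as changed, gave 0.091 for OsalphaCA2, 0.29 for OsALMT1 and 0.64 for OscytME3. With 0.1 added the values were -0.43, -1.02 and 0.55, of which the OsalphaCA2 value no longer passed, with 0.5 added OsALMT1 was -0.36, and without trend OscytME3 was 0.15 and passed. Leaving out each library gave -0.47 to -0.35 for OsalphaCA2 and -0.25 to -0.15 for OsALMT1. Rounding to 2 decimals limits values near 0.08 FPKM.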
